A study of Homo sapiens with 6 samples.

Results

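The genes studied here encode the subunits of the proteasome, with its activators, its inhibitor and its assembly chaperones. They were taken by symbol, as every gene of the tables named PSMA, PSMB, PSMC, PSMD, PSME, PSMF or PSMG followed by a number, leaving out PSMB8 and PSMB9. This gave 46 of the 23228 genes in the tables. RNA-seq of Hep3B, an established human hepatocellular carcinoma cell line, was made from 3 control libraries and 3 libraries labelled PELP1-KD. The control cells carried a non-targeting shRNA and the PELP1-KD cells an shRNA against PELP1, a scaffolding coregulator of transcription and ribosome biogenesis, both delivered by lentivirus. Such a hairpin RNA is processed to a small interfering RNA, and the mRNA that pairs with it is degraded. The KD cells were stable clones selected with puromycin and pooled, so each group is 1 cell population. The titles name the first PELP1 shRNA and the protocol names both shRNAs, so which was used is uncertain. Nothing in the labels says that the replicates came from separate cultures. The p-values thus measure the spread between these libraries, which may be technical.

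The proteasome is the protease that degrades most short-lived, damaged and regulatory proteins of the cell, usually after ubiquitin has been attached to them. Its 20S core is a barrel of alpha rings, which gate the entry, around beta rings, which hold the catalytic sites. The 19S cap binds ubiquitin chains, removes them and unfolds the substrate with a ring of ATPases. The cores can instead carry the activators PSME1 with PSME2, PSME3 or PSME4. After interferon, the standard catalytic subunits are exchanged for inducible ones, of which PSMB10 is one, and such immunoproteasomes are known for making peptides for MHC class I. Liver cells depend on the proteasome for the turnover of misfolded secretory proteins.

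Reads on genes ranged from 26758363 to 34456542 per library, and 14537 genes passed edgeR's filter on low counts. Levels between libraries are given below as normalized reads, which are reads scaled to library size by edgeR's TMM method. Genes were called at an adjusted p below 0.05 with edgeR's quasi-likelihood test (Benjamini-Hochberg over the 14537 genes). Differences are log2 fold changes of labelled PELP1-KD against control, with their standard error (SE). All 13 markers of hepatocytes or hepatocellular carcinoma were expressed, from a control mean of 2938 normalized reads for TTR to 347499 for ALB. They were not steady between the groups. AFP, FGB, KRT8, KRT18 and HNF4A were called higher in labelled PELP1-KD and the rest of the 13 lower. ALB was at 65.4% of control, APOA2 at 15.8% and AFP at 154%. Of the markers of other cells, PTPRC, VWF, DCN and CD3E had at most 6 normalized reads in every library. CD68 had 1308 to 1461 normalized reads in control and 1855 to 1999 in the labelled PELP1-KD libraries. PDGFRB had 131 to 155 and 30.7 to 36.0, and PECAM1 60.7 to 70.0 over all libraries. The part of these markers in the results below was not tested. In RNA of a whole culture, fewer cells of a type and less RNA per cell cannot be told apart.

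The mRNA of PELP1 itself differed little between these libraries. In control it had 4893, 4914 and 5102 normalized reads, and in labelled PELP1-KD it had 4421, 4825 and 4840. Each labelled PELP1-KD library was below each control library, with a mean of 4695 ± 238 (SD, n = 3) against 4970 ± 115. Its log2 fold change was -0.08 (SE 0.04, edgeR adjusted p = 0.101). It passed the test when the fit had the replicate number as a block (-0.08, edgeR adjusted p = 0.0106). The group is therefore called labelled PELP1-KD. These are mRNA values. The paper reports lower PELP1 protein by Western blot in its Huh7 and Hep3B knockdown cells, which RNA-seq does not measure. Replicate 3 of both groups stood apart from the other replicates. Over 6370 genes, the deviations of these 2 libraries from their group means had a correlation of 0.666 across genes. Each had negative values, from -0.569 to -0.372, with replicates 1 and 2 of the other group. Deviations within a group sum to 0 in each gene, so these negative values partly follow from the 0.666. For replicates 1 and 2, same-numbered libraries gave 0.336 and 0.247 and differently numbered ones 0.418 and 0.244. The replicate block thus has little ground in these values beyond replicate 3. Counts are therefore also given without replicate 3 of both groups.

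Most proteasome genes kept nearly the same level in the labelled PELP1-KD libraries, while PSMB10 doubled and PSME1 and PSME2 rose. Of the 46 members, 44 were tested. PSMA8, the testis alpha subunit, had 0 reads in each library, which allows up to 3 reads. PSMB11, the thymus beta subunit, had 0 or 1 read. Of the tested members, 15 were called higher, 6 were called lower and 23 did not pass. Over all tested genes 53.6% were called, 26.8% higher and 26.8% lower. The members' share of 47.7% in both directions together lay near this background. By direction the members did not split evenly as the background did, with 15 of 44 higher and 6 of 44 lower. This unevenness was not tested. The median log2 fold change of the members was 0.05, against 0.00 over all tested genes. Their median absolute log2 fold change was 0.085, against 0.195 over all tested genes. An absolute log2 fold change below 0.15 was found for 38 of 44 members (86.4%) and for 40.7% of all tested genes. The members were also more highly expressed. Their median control level was 108 reads per kilobase of exon per 1000000 reads, against 7.9 over all tested genes. The part of this level in the smaller sizes of change was not tested. At least 2-fold and called was 1 member, PSMB10, against 7.65% of all tested genes. The groups did not overlap for 18 members that were higher and 8 that were lower, where 29.5% and 29.3% of all tested genes did so. With the replicate block 19 members were called higher and 7 lower, against 30.4% and 30.4% of all tested genes (60.7% together). Without replicate 3 of both groups the counts were 16 and 7, against 26.8% and 27.8% (54.6% together). DESeq2 called 13 members higher and 6 lower, against 23.6% and 24.6% (48.2% together). In place of 21, the members called were 11 without control replicate 1, 11 without control replicate 2 and 10 without KD replicate 2. Over all tested genes 6854 were called without control replicate 1 and 6766 without control replicate 2, in place of 7788.

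**Figure D1:**
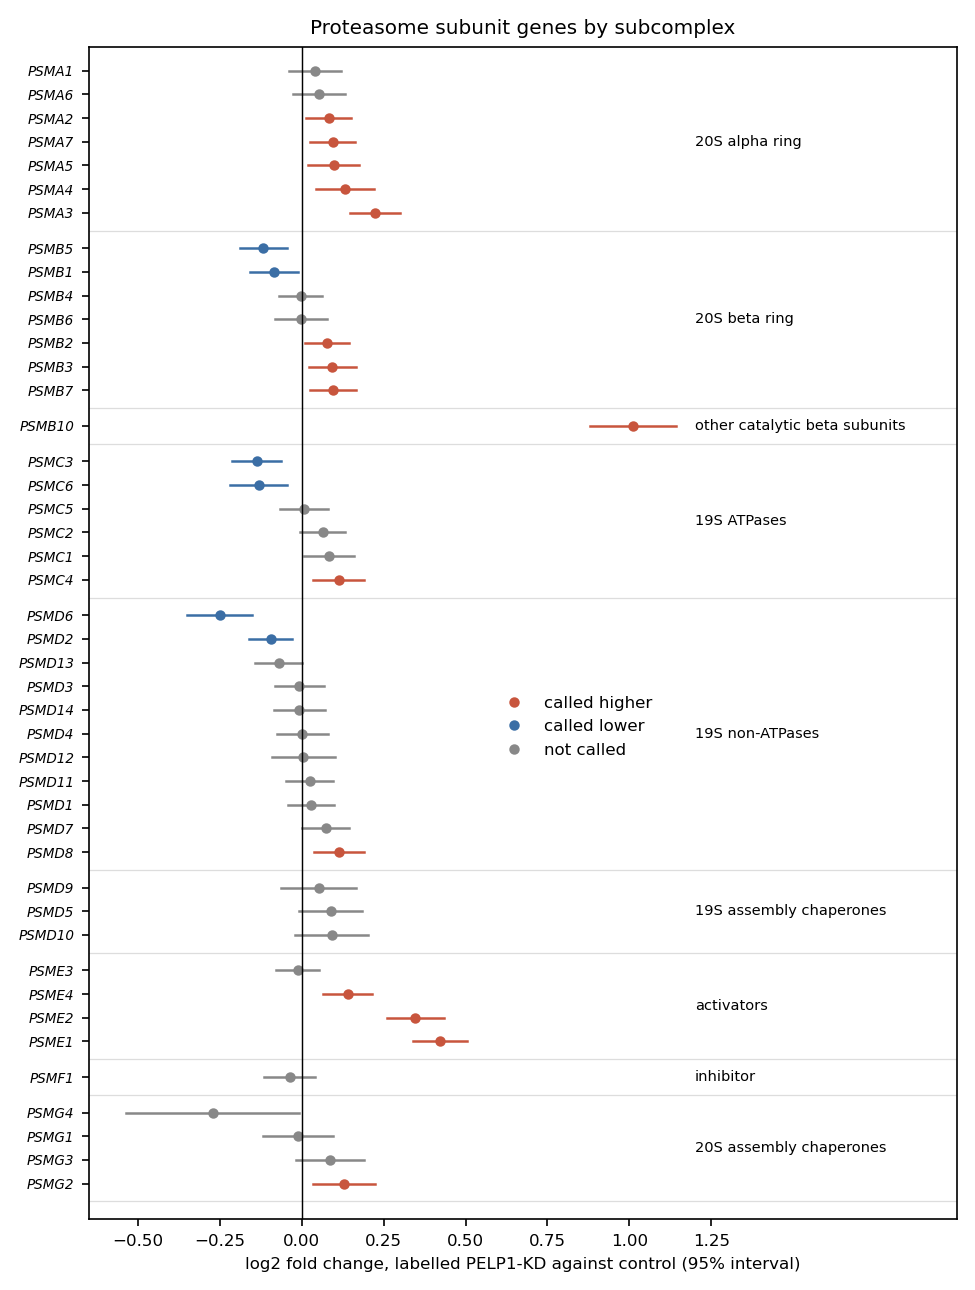
Log2 fold change of each of the 44 tested proteasome genes (x axis, labelled PELP1-KD against control, with 95% intervals from edgeR), ordered within 9 subcomplexes. PSMB10 stands at 1.01, PSME1 and PSME2 at 0.42 and 0.35, and the other members lie between -0.27 and 0.22.

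**Figure D2:**
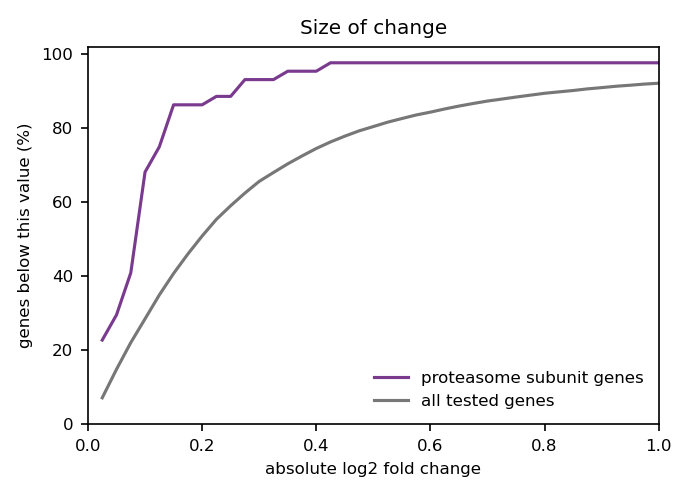
Share of genes (y axis, %) whose absolute log2 fold change lies below the value on the x axis, for the 44 tested proteasome genes and for all 14537 tested genes. At 0.15 the curves stand at 86.4% and 40.7%. The proteasome genes were more highly expressed than most tested genes, and the part of level in the curves was not tested.

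PSMB10, the inducible catalytic subunit that takes the place of PSMB7 in new cores, changed more than any other member. Its gene spans chr16:67968407-67970780 of hg19, minus strand. It had 581, 609 and 624 normalized reads in control and 1118, 1242 and 1295 in labelled PELP1-KD. Every labelled PELP1-KD library was above every control library, and all deposited values of the gene were whole numbers. The means were 605 ± 21.6 and 1218 ± 91.0 (SD, n = 3), which is 202% of control. The log2 fold change was 1.01 (SE 0.06, 95% interval 0.88 to 1.14, edgeR adjusted p = 4.67e-11). Leaving out each library in turn gave log2 fold changes between 0.96 and 1.07, with the call kept each time. It fell just below 2-fold, to 0.984 without control replicate 1, 0.998 without KD replicate 2, 0.963 without KD replicate 3, and 0.985 without replicate 3 of both groups.

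The level of PSMB10 stayed well under that of the subunit it replaces. PSMB7, the standard subunit with trypsin-like activity, had 6685, 6724 and 6638 normalized reads in control and 6995, 7129 and 7298 in labelled PELP1-KD. The groups did not overlap, and the log2 fold change was 0.10 (SE 0.03, edgeR adjusted p = 0.0238). Per exon length, PSMB10 stood at 8.50%, 8.85% and 9.19% of the level of PSMB7 in the control libraries. In the labelled PELP1-KD libraries it stood at 15.6%, 17.0% and 17.4%. The share was thus 8.85% ± 0.344 and 16.7% ± 0.919 (SD, n = 3), with no overlap.

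The inducible partners of PSMB10 were hardly detected. PSMB8, which takes the place of PSMB5, had 4, 10 and 5 reads in control and 20, 3 and 16 in labelled PELP1-KD. PSMB9, which takes the place of PSMB6, had 4, 3 and 0 reads in control and 15, 5 and 7 in labelled PELP1-KD. The groups overlapped for PSMB8 and not for PSMB9, whose lowest labelled PELP1-KD library held 5 reads. Neither passed the filter on low counts, so neither was tested. Both have exons on 8 sequences of hg19, because the MHC region has alternative haplotypes there, and reads that match several of these can be shared out or dropped by the counting.

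PSME1 and PSME2, the alpha and beta chains of the interferon-inducible activator PA28, rose together. They lie 4397 bases apart in hg19, PSME1 at chr14:24605378-24608176 (plus strand) and PSME2 at chr14:24612574-24615855 (minus strand). PSME1 had 3108, 3030 and 3177 normalized reads in control and 4048, 4255 and 4178 in labelled PELP1-KD. PSME2 had 2621, 2693 and 2534 in control and 3325, 3237 and 3418 in labelled PELP1-KD. For both genes all 3 labelled PELP1-KD libraries were above all control libraries. The log2 fold change was 0.42 for PSME1 (SE 0.04, edgeR adjusted p = 2.3e-08), with means of 3105 ± 73.5 and 4160 ± 105 (SD, n = 3). For PSME2 it was 0.35 (SE 0.04, edgeR adjusted p = 6.94e-07), with means of 2616 ± 79.9 and 3327 ± 90.6. The chains kept about the same proportion. Per exon length PSME1 stood at 84.2% ± 4.57 of PSME2 in control and at 88.7% ± 3.88 in labelled PELP1-KD (SD, n = 3), with ranges that overlapped.

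The other activators gave smaller values. PSME3, which forms the nuclear activator PA28 gamma on its own, had 9941, 10090 and 9984 normalized reads in control and 10003, 9843 and 9918 in labelled PELP1-KD. The groups overlapped, and the log2 fold change was -0.01, with a 95% interval from -0.08 to 0.05. Per exon length PSME1 stood at 85.8%, 82.4% and 87.3% of PSME3 in control and at 111%, 119% and 116% in labelled PELP1-KD, so their order turned. PSME4, the large nuclear activator PA200, had 7540, 7577 and 7299 normalized reads in control and 8424, 8371 and 7919 in labelled PELP1-KD. No library overlapped, and the log2 fold change was 0.14 (SE 0.04, edgeR adjusted p = 0.00252). PSMF1, the inhibitor PI31, was not called at -0.04.

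**Figure D3:**
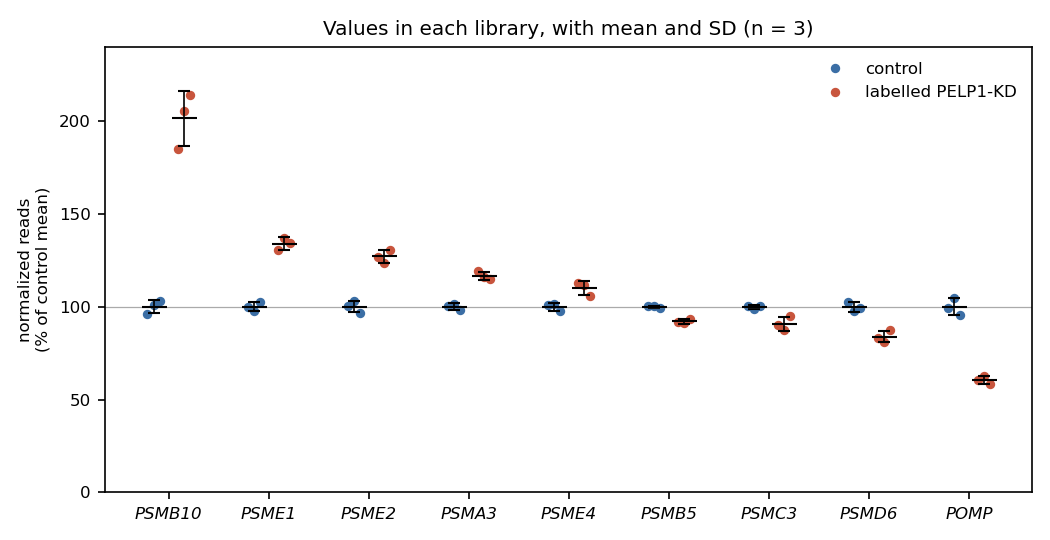
Normalized reads of each library as a percent of the gene's control mean (y axis, from 0), for 8 proteasome genes and the assembly factor POMP. Points are single libraries and bars the mean with SD (n = 3). PSMB10 reaches about 202% of control in labelled PELP1-KD, PSME1 134%, PSME2 127% and POMP 60.6%. The 9 genes shown were all called, and in each the groups are apart. Over all tested genes the groups did not overlap in 29.5% (higher) and 29.3% (lower).

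PSMB10, PSME1 and PSME2 share a 10-base run beside their start sites. The run GAAAGCGAAA is the form most often found in member promoters of GAAANNGAAA, the core of the elements bound by interferon regulatory factors. Both were searched on both strands in RefSeq promoters of GRCh38.p14, from 250 bases before to 50 after each start, and this search was chosen after the values had been seen. The table held 40 of the 46 members, with 48 starts. PSMA7, PSMB1, PSMB6, PSMB7, PSMD4 and PSMG3 had no entry. GAAAGCGAAA was in 4 of the 48 member starts (8.33%) and in 35 of all 35116 starts (0.0997%). The 2 middle letters of this run were taken from the member promoters, so its contrast with all starts was partly set by that choice. GAAANNGAAA was in 6 member starts (12.5%) and in 3.57% of all starts. The wider form, which includes the narrower, was also found in PSMA4 and PSMB4. The windows below run from 60 bases before to 20 after the start, 5′ to 3′ on the strand of the gene, and are shown because these genes hold the run. Capitals mark GAAANNGAAA or its reverse complement.
PSMB10, chr16:67936831-67936910, minus strand: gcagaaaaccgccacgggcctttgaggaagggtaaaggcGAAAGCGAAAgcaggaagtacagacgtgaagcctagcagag
PSME1, chr14:24136134-24136213, plus strand: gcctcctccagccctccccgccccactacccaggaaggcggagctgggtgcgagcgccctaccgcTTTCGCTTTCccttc
PSME2, chr14:24146591-24146670, minus strand: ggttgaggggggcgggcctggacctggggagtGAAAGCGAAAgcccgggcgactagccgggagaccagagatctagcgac
PSMG4, chr6:3258887-3258966, plus strand: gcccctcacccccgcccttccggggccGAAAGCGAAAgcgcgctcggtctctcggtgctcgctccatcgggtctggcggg

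The run lies before the start in 3 of these genes, from 21 to 12 bases before it in PSMB10, 28 to 19 in PSME2 and 33 to 24 in PSMG4. In PSME1 it lies after the start, at bases 6 to 15, on the opposite strand. PSMG4, a chaperone of core assembly, had 126, 154 and 148 normalized reads in control and 124, 105 and 124 in labelled PELP1-KD. All 3 labelled PELP1-KD libraries were below the lowest control library. Its log2 fold change of -0.27 was the lowest of the members, with the widest error (SE 0.13, 95% interval -0.54 to -0.01), and it was not called (edgeR adjusted p = 0.077). Of all genes in the table, 34 symbols had GAAAGCGAAA in a promoter and 20 of them were tested, including the 4 above. Of these 20, 10 were called higher and 4 lower, with a median log2 fold change of 0.18, where 26.8% of all tested genes were called in each direction. Without the 4 members, 3 of which prompted the search, 7 of 16 were called higher and 4 lower, with a median of 0.09. A match of letters is a description of the sequence and not a binding site.

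Of the 7 tested genes of the alpha ring 5 were called higher and none lower, where 26.8% of all tested genes were called in each direction. DESeq2 called 4 of them higher, as did the fit without replicate 3 of both groups. All 7 had a positive log2 fold change, with a median of 0.09. PSMA3 had 5055, 5135 and 4946 normalized reads in control and 6012, 5868 and 5790 in labelled PELP1-KD. The lowest labelled PELP1-KD library was above the highest control library, and the means were 5045 ± 94.98 and 5890 ± 112 (SD, n = 3). Its log2 fold change was 0.22 (SE 0.04, edgeR adjusted p = 2.97e-05), the largest of the 14 tested genes of both rings. PSMA4, at 0.13, PSMA5, at 0.10, PSMA7, at 0.09, and PSMA2, at 0.08, were called higher with edgeR adjusted p values from 0.0134 to 0.0429. PSMA1 at 0.04 and PSMA6 at 0.05 were not called. DESeq2 did not call PSMA2 (adjusted p = 0.0553), and without replicate 3 of both groups PSMA5 was not called (edgeR adjusted p = 0.105). The reads of the alpha ring summed to 1529, 1544 and 1496 reads per 1000000 (RPM, scaled by TMM) in control and to 1633, 1647 and 1624 in labelled PELP1-KD, which is 107% of control with no overlap.

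The standard beta ring moved both ways by small amounts. Of its 7 genes 3 were called higher and 2 lower (71.4%, against 53.6% of all tested genes). All 7 lay within 0.12 of 0 on the log2 scale. PSMB5, the subunit with chymotrypsin-like activity and the main target of proteasome inhibitors such as bortezomib, had 5801, 5790 and 5740 normalized reads in control. It had 5305, 5262 and 5411 in labelled PELP1-KD, all below the control libraries. Its log2 fold change was -0.12 (SE 0.035, edgeR adjusted p = 0.00817), with means of 5777 ± 32.6 and 5326 ± 76.7 (SD, n = 3). PSMB6, the subunit with caspase-like activity, had 5915, 5506 and 5821 normalized reads in control and 5681, 5650 and 5890 in labelled PELP1-KD. Here the groups overlapped, with a log2 fold change of -0.002 (edgeR adjusted p = 0.972) and a 95% interval from -0.08 to 0.08. PSMB6 lies 91824 bases from PELP1 on chromosome 17.

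The noncatalytic beta genes gave values of the same size. PSMB3 was called higher at 0.09 (edgeR adjusted p = 0.0284) and PSMB2 at 0.08 (0.0466). PSMB1 was called lower at -0.09 (edgeR adjusted p = 0.043), and PSMB4 was not called at -0.003. PSMB2 was not called by DESeq2 (adjusted p = 0.061). The summed reads of the beta ring were 1652, 1648 and 1657 RPM in control and 1652, 1677 and 1697 in labelled PELP1-KD, or 101% of control, with ranges that overlapped.

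In the ring of ATPases that unfolds substrates, 1 of 6 genes was called higher and 2 lower (50.0%, against 53.6% of all tested genes). PSMC3 had 8761, 8634 and 8790 normalized reads in control and 7876, 7645 and 8291 in labelled PELP1-KD. It was lower in each labelled PELP1-KD library, with a log2 fold change of -0.14 (SE 0.04, edgeR adjusted p = 0.00322) and means of 8728 ± 83.3 and 7937 ± 327 (SD, n = 3). PSMC6 had 3494, 3475 and 3291 in control and 3256, 3038 and 3069 in labelled PELP1-KD. The groups did not overlap, though control replicate 3 and KD replicate 1 nearly met, and the log2 fold change was -0.13 (SE 0.04, edgeR adjusted p = 0.0127). PSMC4 was called higher at 0.11 (edgeR adjusted p = 0.0147). PSMC1 at 0.08, PSMC2 at 0.065 and PSMC5 at 0.01 were not called. With the replicate block PSMC1 and PSMC2 passed the test as higher (edgeR adjusted p = 0.00659 and 0.0166).

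The other subunits of the 19S cap changed little. Of the 11 genes, 1 was called higher and 2 lower (27.3%, against 53.6% of all tested genes), and their median log2 fold change was 0.00. PSMD6, a subunit of the lid, had 1831, 1741 and 1774 normalized reads in control and 1482, 1448 and 1559 in labelled PELP1-KD. Each labelled PELP1-KD library was below each control library, and the means were 1782 ± 45.5 and 1497 ± 56.9 (SD, n = 3). Its log2 fold change of -0.25 (SE 0.05, edgeR adjusted p = 0.000153) was the lowest of the members that were called. PSMD6 spans chr3:63996231-64009120 of hg19, minus strand.

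PSMD2, the large base subunit that holds shuttle receptors and ubiquitin, had the most reads of the members. It had 16816, 16898 and 17306 normalized reads in control and 15430, 16155 and 16201 in labelled PELP1-KD. The groups did not overlap, and the log2 fold change was -0.09 (SE 0.03, edgeR adjusted p = 0.0163). PSMD8, of the lid, was called higher at 0.11 (edgeR adjusted p = 0.0131). The scaffold PSMD1 was at 0.03, the ubiquitin receptor PSMD4 at 0.00 and the deubiquitinase PSMD14 at -0.01, and none of these was called. Of the other lid genes, PSMD3 at -0.01, PSMD11 at 0.02, PSMD12 at 0.005, PSMD7 at 0.07 and PSMD13 at -0.07 were not called. The replicate block called PSMD7 higher (edgeR adjusted p = 0.0108) and PSMD13 lower (0.0143), and both were also called without replicate 3 of both groups (edgeR adjusted p = 0.0333 and 0.0174). The summed reads of these 11 genes were 99.3% of control, with ranges that overlapped.

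**Figure D4:**
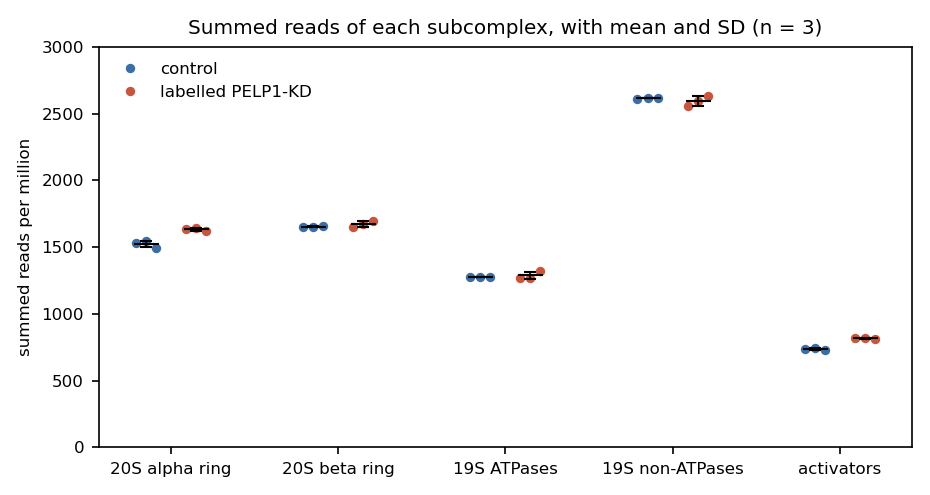
Summed reads, in RPM (y axis, from 0) of the genes of 5 subcomplexes in each library, with the mean and SD (n = 3). The alpha ring and the activators are higher in each labelled PELP1-KD library, at 107% and 111% of control, and the ranges of the other 3 sums overlap.

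The chaperones of assembly fall into those of the core and those of the cap. PSMG2, which works as a pair with PSMG1, was called higher at 0.13 (edgeR adjusted p = 0.0223), while PSMG1 was at -0.01 and PSMG3, the partner of PSMG4, at 0.085, neither called. The call of PSMG2 was lost without replicate 3 of both groups (edgeR adjusted p = 0.0858). PSMD5, PSMD9 and PSMD10, which help to build the ATPase ring, were at 0.09, 0.05 and 0.09, and none was called. PSMD5 passed with the replicate block (edgeR adjusted p = 0.0254). PSMD5 and PSMD10 passed without replicate 3 of both groups (edgeR adjusted p = 0.00365 and 0.0353), with log2 fold changes of 0.13 and 0.14.

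POMP, the maturation factor that completes the core and is not named by the rule, went the other way. It had 3285, 3471 and 3170 normalized reads in control and 2006, 2082 and 1924 in labelled PELP1-KD. Every labelled PELP1-KD library was far below every control library, with means of 3309 ± 152 and 2004 ± 79.0 (SD, n = 3). The log2 fold change was -0.72 (SE 0.05, edgeR adjusted p = 6.63e-11). Per exon length POMP stood at 57.0% ± 2.42 of PSMB5 in control and at 37.5% ± 2.00 in labelled PELP1-KD (SD, n = 3).

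The members differed widely in level. Per exon length, as reads per kilobase of exon per 1000000 reads (RPKM), control means ran from 4.35 for PSMG4 to 400.2 for PSMA7, with a median of 108. After PSMA7 came PSMB3 at 355 and PSMB4 at 339. The standard catalytic genes were at 221 for PSMB6, 216 for PSMB7 and 126 for PSMB5, and PSMB10 at 19.1 in control and 38.5 in labelled PELP1-KD. The cap chaperones PSMD5, PSMD10 and PSMD9 were low, at 23.3, 19.7 and 15.4. PSMA5 and PSMB2 were the lowest of their rings, at 34.1 and 62.6, and their annotated exons were long, at 3864 and 4845 bases. In these genes the level per exon length depends on how much of that exon sequence the cells use. The summed reads of all members were 8302, 8323 and 8267 RPM in control and 8453, 8530 and 8612 in labelled PELP1-KD, or 103% of control.

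**Figure D5:**
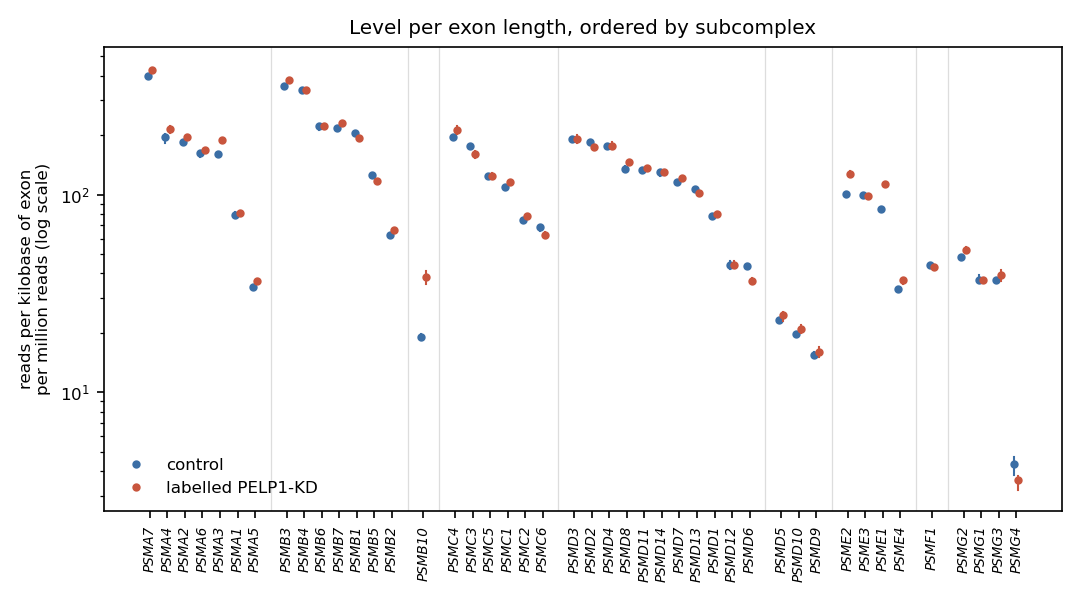
Control and labelled PELP1-KD levels of the 44 tested proteasome genes, in RPKM on a log scale (y axis), ordered by control level within each subcomplex. Points are means of 3 libraries and lines their range. Most pairs of points lie side by side, and PSMB10 goes from 19.1 to 38.5.

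The other genes of the ubiquitin and proteasome pathway were described from lists of 39 genes, of which 36 were tested. They moved in both directions, with 9 called higher and 12 lower (58.3%, against 53.6% of all tested genes) and a median log2 fold change of -0.04. Of the 5 partners of the cap and of assembly without a PSM symbol, SHFM1, a small subunit of the lid, was not called at 0.09 (edgeR adjusted p = 0.0561) and passed with the replicate block (edgeR adjusted p = 0.00598). ADRM1, a ubiquitin receptor, was not called at 0.03. The other 2 besides POMP are named after seeing their values. UCHL5, the deubiquitinase held by ADRM1, was called lower at -0.29 and PAAF1, a chaperone of the ATPases, higher at 0.20 (edgeR adjusted p = 0.000484 and 0.0269).

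NFE2L1 encodes NRF1, the factor that raises proteasome genes when proteasome activity falls. It had 10592, 10809 and 11212 normalized reads in control and 10270, 10488 and 10782 in labelled PELP1-KD. The groups overlapped, and it was not called at -0.05 (edgeR adjusted p = 0.245). It was lower in each pair of libraries with the same number, and with the replicate block it passed the test as lower by a narrow margin (-0.05, edgeR adjusted p = 0.05 as rounded). The 11 genes listed for this control include the factor, its processing enzymes, its small MAF partners and NFE2L2, which encodes the separate factor NRF2. Of the 11, 3 were called higher and 4, with NFE2L2 among them, lower (63.6%, against 53.6% of all tested genes). With the replicate block the counts were 3 and 6, against 30.4% and 30.4%. NRF1 with a small MAF binds the antioxidant response element. Its cores TGACNNNGC or TGAGNNNGC, searched on both strands, were in 22 of the 48 member starts (45.8%), in 21 members, and in 29.1% of all starts. Of these 21 members 11 were called higher, 1 lower (PSMB5) and 9 not at all, with a median log2 fold change of 0.09. Of the 17 tested members whose promoters lacked the letters 2 were called higher and 4 lower, with a median of 0.02. Over all tested genes 26.8% were called in each direction, and the difference between these sets of members was not tested. This search was not planned before the values were seen. The share called among all genes with these letters was not taken. The 21 members include PSME1 and PSME2, which also hold the run GAAAGCGAAA. Of the 9 proteins that bind or regulate the proteasome 2 were called higher and 2 lower, of the 6 ubiquitin and E1 genes 2 and 2, and of the 5 tested shuttle receptors 1 and 2.

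How firm these calls are differed between members. All 21 called members kept their direction when each library was left out in turn, and 7 of them were called in all 6 of these fits. These were PSMB10, PSME1, PSME2, PSMA3 and PSME4, which were higher, and PSMD6 and PSMC3, which were lower. The other 14 lost the call in at least 1 fit. With PSMB10, PSME1 and PSME2 set aside, the log2 fold changes of the other 41 members ran from -0.27 to 0.22. Of these, 12 were called higher and 6 lower (43.9%, against 53.6% of all tested genes). The median SE of a member's log2 fold change was 0.036. The smallest called differences, down to 0.077 for PSMB2 (edgeR adjusted p = 0.0466), were thus near the limit of what 3 libraries a group could show.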

How the data were processed

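Gene tables of 6 Hep3B libraries were used, grouped by the labels. Per the file headers, the authors deposited estimated counts from featureCounts 1.5.0-p1, by strand on hg19 exons with a minimum mapping quality of 2, in which reads matching several places or genes were shared out as fractions. The paper's methods name TopHat2 and HTSeq, and the submitters' processing notes bcl2fastq, HISAT2, SAMtools and featureCounts. Sources also differ on RNA extraction, mRNA selection or ribosomal RNA removal, and single or paired reads. Between 10.6% and 13.3% of a library's values were not whole, and 37 of the 46 members had such a value. Members' exons shared 0 bases with other genes on their strand, so reads matching several places remain as a source of fractions.

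Counts were rounded and tested with edgeR 4.0.16 (TMM, filterByExpr, robust glmQLFit and glmQLFTest, R 4.3.3). The SE is the size of the log2 fold change divided by the root of F. Levels per exon length use the tables' exon lengths. The members and all lists were chosen with earlier results of these data known. Members given in full were, per direction, the 5 of smallest p and the 3 of largest change at 100 or more normalized reads, and PSMB5, PSMB6, PSMB7 and PSMB10. Of the pathway genes, PSMB8, PSMB9, POMP, SHFM1, ADRM1, NFE2L1 and any called at 1.25-fold or more were to be named. Alternatives were DESeq2's size factors, upper-quartile normalization, DESeq2 1.42.0, no filter, at least 10 reads in every library, an adjusted p below 0.01, each library left out, plain library totals, members with whole values alone, and the replicate block. Added after the data were seen were that block with a GC and length correction (loess, span 0.3) and leaving out replicate 3 of both groups. Replicates differed beyond sampling noise (chi-square per degree of freedom 1.94 to 7.02). Deviations of same-numbered libraries correlated at 0.336, 0.247 and 0.666 over the 6370 genes with log2 CPM above 5. Control replicate 2 with KD replicate 1 gave 0.418, and control replicate 1 with KD replicate 2 gave 0.244. These values set replicate 3 apart but do not pair replicates 1 and 2 by number. The block took the numbers as pairs, and the calls it added depend on that choice. The fit was tested on simulated data with few changed genes and no shift shared by the replicate 3 libraries. That setting differs from these data, so it does not vouch for the calls made here. One marker of the other cell types is not reported here.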

Additional observations from a re-analysis of the deposited data

How the results depend on the processing

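Small changes are the limit of these data. Only 7 of the 21 calls stood whichever library was left out, and fractional counts touch 37 members. Without 1 library the count of called members ran from 10 to 23, with 11 without control replicate 1, 11 without control replicate 2 and 10 without KD replicate 2. Over all tested genes 7788 were called in the main fit. This became 6854, 6766 and 7158 without control replicates 1, 2 and 3, and 7399 without KD replicate 1. Among the members, higher calls ran from 6 to 17 and lower calls from 3 to 6. The count past 2-fold ran from 0 to 1, and was 0 without control replicate 1, KD replicate 2 or KD replicate 3, and without replicate 3 of both groups, which also gave a median log2 fold change of 0.029. At an adjusted p below 0.01, 8 members (5 higher, 3 lower) and 13 of the other pathway genes were called. The 53.6% of all tested genes holds for 0.05, so these counts are not to be set against it. PELP1 passed the test with the replicate block (-0.083), with the block and the GC and length correction (-0.086), and without replicate 3 of both groups (-0.087), and ranged from -0.105 to -0.040 without 1 library, passing at -0.105 without KD replicate 3. With plain library totals the summed reads were 104.0% of control for all members, 102.6% for the beta ring, 100.4% for the other 19S genes and 111.9% for the activators. With members of whole values alone they were 110.2% for all members and 100.4% for the other 19S genes, of which PSMD12 alone remained. Scaled by TMM, the reads of all genes summed to 98.85% of control, where plain totals make this sum equal in every library. The members of whole values include PSMB10, at 202% of control, and its part in the 110.2% was not tested. The replicate block lost 0 of the 21 calls and added the 5 named beside their genes.

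Reversals in direction were all in members that were not called and lay near 0. PSMB6 turned to 0.001 with no filter. PSMD4 turned to -0.002 with DESeq2 or its size factors, -0.003 with upper-quartile normalization, -0.004 at 10 reads or more, -0.009 with the block and GC correction and -0.027 without replicate 3 of both groups. PSMC5 turned to -0.002 with the block and GC correction and -0.008 without replicate 3 of both groups, and PSMD12 to -0.001 at 10 reads or more and -0.006 without replicate 3 of both groups. With 1 library left out, the log2 fold changes ran from -0.011 to 0.008 for PSMB4, -0.032 to 0.021 for PSMB6, -0.013 to 0.021 for PSMC5, -0.030 to 0.038 for PSMD12, -0.032 to 0.011 for PSMD14, -0.046 to 0.021 for PSMD3, -0.033 to 0.024 for PSMD4 and -0.037 to 0.029 for PSMG1.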
